A study of Mus musculus with 21 samples.

Results

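The 8 Serpin genes described here in mouse conventional dendritic cells (cDCs) over maturation and subset were Serpinb1a, Serpinb6a, Serpinb6b, Serpinb8, Serpinb9, Serpinb9b, Serpinf1 and Serpini1. These 8 genes were selected by their maturation and subset values in these same libraries, out of 63 genes whose symbol starts with Serpin and is not that of a pseudogene and out of 37734 genes in all. Comparisons between tissues use the same immature libraries as the subset values, and the values of the 8 genes below are therefore a description throughout, without a p value. Where one is said to be called, this gives its side of the thresholds used for all genes and is no test. All 8 passed the filter on low values, a normalized reads count of at least 10 in at least 3 samples, Serpinb9b through the mature groups and 2 of the immature thymic cDC2 samples. In all, 22 Serpin genes passed it, and 18 had no read in any library.

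Cells were sorted by flow cytometry from pooled C57BL/6 (B6) mice aged 6 to 8 weeks, after enrichment on CD11c beads. No group carried a transgene or received an agent. The groups were immature (CCR7- Esam-) cDC1 and cDC2 of spleen, immature cDC1 and cDC2 of thymus, and mature (CCR7+ Esam+) cDC1 and cDC2 of thymus, where cDC1 were gated as CD24+ CD11b- and cDC2 as CD24- CD11b+. Of 21 libraries, splenic cDC1 replicates 4 and 5 shared pool, index and lane, differed far less than other pairs of that group (chi-square per degree of freedom 2.52, against 26.9 to 190.0) and were counted as 1 sample. Immature thymic cDC1 replicates 3 and 4 also shared pool, index and lane, but differed more than the other pairs of their group (100.5, against 24.62 to 93.62) and were kept as separate samples, and splenic cDC1 replicates 1 and 4 shared a pool. These pairs may thus come from the same mice. This left 4 samples each of splenic and immature thymic cDC1 and 3 of each other group. No mature cells of spleen were included, so that maturation could be followed in the thymus alone.

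Serpins are protease inhibitors that offer a loop as bait to the protease and trap it in a covalent complex when the loop is cleaved. Genes of the B clade (Serpinb) encode inhibitors that stay mostly inside the cell, where they meet proteases leaking from granules or lysosomes, while most other serpins are secreted. In dendritic cells they are known for guarding the cell against granule proteases and for limiting the cathepsins that cut antigen.

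Library depth lay between 14266867 and 40119669 reads, and the intervals given below for low counts cover counting error only. The sum over 6 cDC1 markers was 84504 to 96266 in splenic cDC1 against 3009 to 4330 in splenic cDC2, and 87578 to 96564 against 3028 to 5156 in immature thymic cells. In mature cells it was 40321 to 43806 in cDC1 and 14300 to 22358 in cDC2. Sums over 5 cDC2 markers ran the other way, with Itgam (CD11b) at 0 in mature cDC1. The 6 markers of mature DCs (Ccr7, Esam, Fscn1, Lamp3, Ccl22 and Cd40) summed to 403724 to 533004 in mature cDC1 and 354286 to 504462 in mature cDC2, and to 1621 to 31320 in the immature samples. Markers of other cells moved with maturation as well. They included those of T cells (94 to 162 in immature thymic samples, 521 to 1082 in mature ones) and of macrophages (775 to 1050 against 5845 to 8276 in cDC1 and 3884 to 6557 against 4616 to 13833 in cDC2, 4 of 5 listed genes found). The 6 thymic epithelial markers summed to 597 to 711 in immature and 1805 to 2579 in mature thymic cDC1, to 3507 to 3877 and 3817 to 4878 in cDC2, and to 155.6 or less in splenic samples. Those of fibroblasts and endothelium, of which 6 were listed, summed to 292 to 399 in immature and 20.3 to 121 in mature thymic cDC1, to 2470 to 2700 and 63.6 to 131 in cDC2, and to 1561 to 1980 in the spleen. Of these 6, only 2 had a group mean of at least 10 in each group, and only 1 in mature cDC2, so the sums stand for few of the listed genes. The 5 markers of plasmacytoid DCs ranged from 3269 to 12121 and were lower in mature (6025 to 7990) than in immature thymic cDC2 (10538 to 12121). The 4 B cell markers summed to 421 to 933 in splenic and 90.4 to 124 in immature thymic cDC1, to 129 to 252 in splenic and 26.5 to 36.3 in immature thymic cDC2, and to 86.4 to 139 and 76.6 to 98.3 in mature cDC1 and cDC2. In every group only 1 of these 4 had a group mean of at least 10, so the sums rest mostly on a single gene. Erythroid markers did not exceed 69.3. The 6 neutrophil markers, with elastase (Elane) at 0 outside mature cDC2 and at most at 2.09 there, did not exceed 50.3 in any sample, and mast cell and basophil markers were at 0 outside mature cDC2, where the highest sum was 6.9. The part of these cells in the results was not tested. In sorted bulk samples, fewer cells of a type and less RNA per cell cannot be told apart.

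Of the 8 genes, 6 lie in clusters of B clade genes. In mm10 coordinates with GENCODE M21 annotation, Serpinb1a (chr13:32842092-32851185, minus strand), Serpinb6b (chr13:32965209-32979067, plus), Serpinb9 (chr13:33003250-33017957, plus), Serpinb9b (chr13:33027416-33041884, plus) and Serpinb6a (chr13:33917918-34002794, minus) share a cluster on chromosome 13, and Serpinb8 (chr1:107590006-107610484, plus) belongs to a cluster on chromosome 1. Serpinf1 (chr11:75409769-75422701, minus) and Serpini1 (chr3:75557547-75643495, plus) lie apart. Of the 75-base stretches of each gene's transcripts, none of those of Serpinb6b, Serpinb8, Serpinb9 or Serpinf1 occurred in another gene on either strand, and 0.3108% of those of Serpinb1a occurred in Serpinb1b. For Serpinb6a the share was 22%, from Nqo2, Ripk1 and 1110046J04Rik, which overlap it on the other strand. For Serpinb9b it was 3.406%, from Gm36099, also on the other strand. The kit marked strand, but the strand setting of the counting is not given in the sources used here.

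Promoters are shown for 5 of the 8 genes, of which Serpinb8 was lower in mature cells and the others higher. RefSeq (GRCm38.p6) gave windows from 250 bases before to 50 bases after the start for 7 of the 8 genes, all but Serpinb1a, with a pair of starts for Serpinb6a. The windows of Serpinf1, also lower in mature cells, and of Serpini1, higher there, are not shown. The display is thus a choice and does not set rising against falling genes. The capitals mark matches, on either strand, to an interferon-response-like motif (GAAA, 2 bases of any kind and GAAA again), a composite ETS and interferon-response motif (GGAA, 2 bases of any kind and GAAA) and an AP-1 motif (TGANTCA).
Serpinb9 (chr13:33004291-33004590, plus): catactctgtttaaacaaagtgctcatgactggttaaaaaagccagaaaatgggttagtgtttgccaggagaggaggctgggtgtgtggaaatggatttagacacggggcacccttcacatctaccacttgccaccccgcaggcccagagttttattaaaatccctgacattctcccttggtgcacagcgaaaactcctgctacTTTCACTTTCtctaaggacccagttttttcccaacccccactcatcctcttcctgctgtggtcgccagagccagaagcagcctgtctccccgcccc
Serpinb9b (chr13:33027164-33027463, plus): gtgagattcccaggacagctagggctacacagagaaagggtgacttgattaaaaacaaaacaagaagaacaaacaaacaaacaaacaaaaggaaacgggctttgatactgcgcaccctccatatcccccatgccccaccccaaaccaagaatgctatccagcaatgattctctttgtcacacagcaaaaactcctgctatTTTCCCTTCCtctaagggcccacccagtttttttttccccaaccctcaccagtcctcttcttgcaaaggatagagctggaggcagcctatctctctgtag
Serpinb6a, upstream start (chr13:34002745-34003044, minus): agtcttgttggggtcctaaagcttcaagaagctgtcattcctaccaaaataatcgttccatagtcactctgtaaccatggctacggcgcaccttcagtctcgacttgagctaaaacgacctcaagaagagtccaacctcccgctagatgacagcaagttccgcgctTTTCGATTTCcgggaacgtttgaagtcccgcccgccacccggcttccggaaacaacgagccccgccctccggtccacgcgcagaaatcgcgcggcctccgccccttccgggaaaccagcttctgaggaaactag
Serpinb6b (chr13:32965011-32965310, plus): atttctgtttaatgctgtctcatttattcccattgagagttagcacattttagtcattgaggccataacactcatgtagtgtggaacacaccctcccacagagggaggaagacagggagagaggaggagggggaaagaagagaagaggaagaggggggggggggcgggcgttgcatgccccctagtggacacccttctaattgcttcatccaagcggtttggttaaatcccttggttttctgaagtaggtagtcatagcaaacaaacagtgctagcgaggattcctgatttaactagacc
Serpinb8 (chr1:107589756-107590055, plus): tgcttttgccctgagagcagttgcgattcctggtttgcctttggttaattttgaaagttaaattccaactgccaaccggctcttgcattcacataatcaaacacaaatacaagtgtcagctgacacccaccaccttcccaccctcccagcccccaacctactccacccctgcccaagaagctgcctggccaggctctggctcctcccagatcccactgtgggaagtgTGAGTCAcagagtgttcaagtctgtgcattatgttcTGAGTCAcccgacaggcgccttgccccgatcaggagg

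Positions are negative before the start and positive from the start base on, with no position 0. The interferon-response-like motif was found at position -46 of Serpinb9 and -84 of Serpinb6a, and the composite motif at -50 of Serpinb9b, in all 3 on the other strand. TGANTCA was found at -23 and 14 of Serpinb8. Around the motif, a stretch of 47 bases was the same in Serpinb9 and Serpinb9b at 38 positions, or 80.9%, when read without gaps, with differences inside the motif itself. The bounds of this stretch were set by choice and the rest of the windows was not compared, so the share holds for the stretch alone. Of 32851 RefSeq promoters of this length, 3.443% held the interferon-response-like motif, 2.715% the composite motif and 7.808% TGANTCA. The NF-kB motif (8.459% of promoters) and CACGTG (7.15%) were searched for as well and were found in none of the windows of the 7 genes, and Serpinb6b, Serpinf1 and Serpini1 held none of the 5 motifs. The window of the downstream start of Serpinb6a, not shown, also held none of them. A match describes the letters and is not a binding site.

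**Figure D1:**
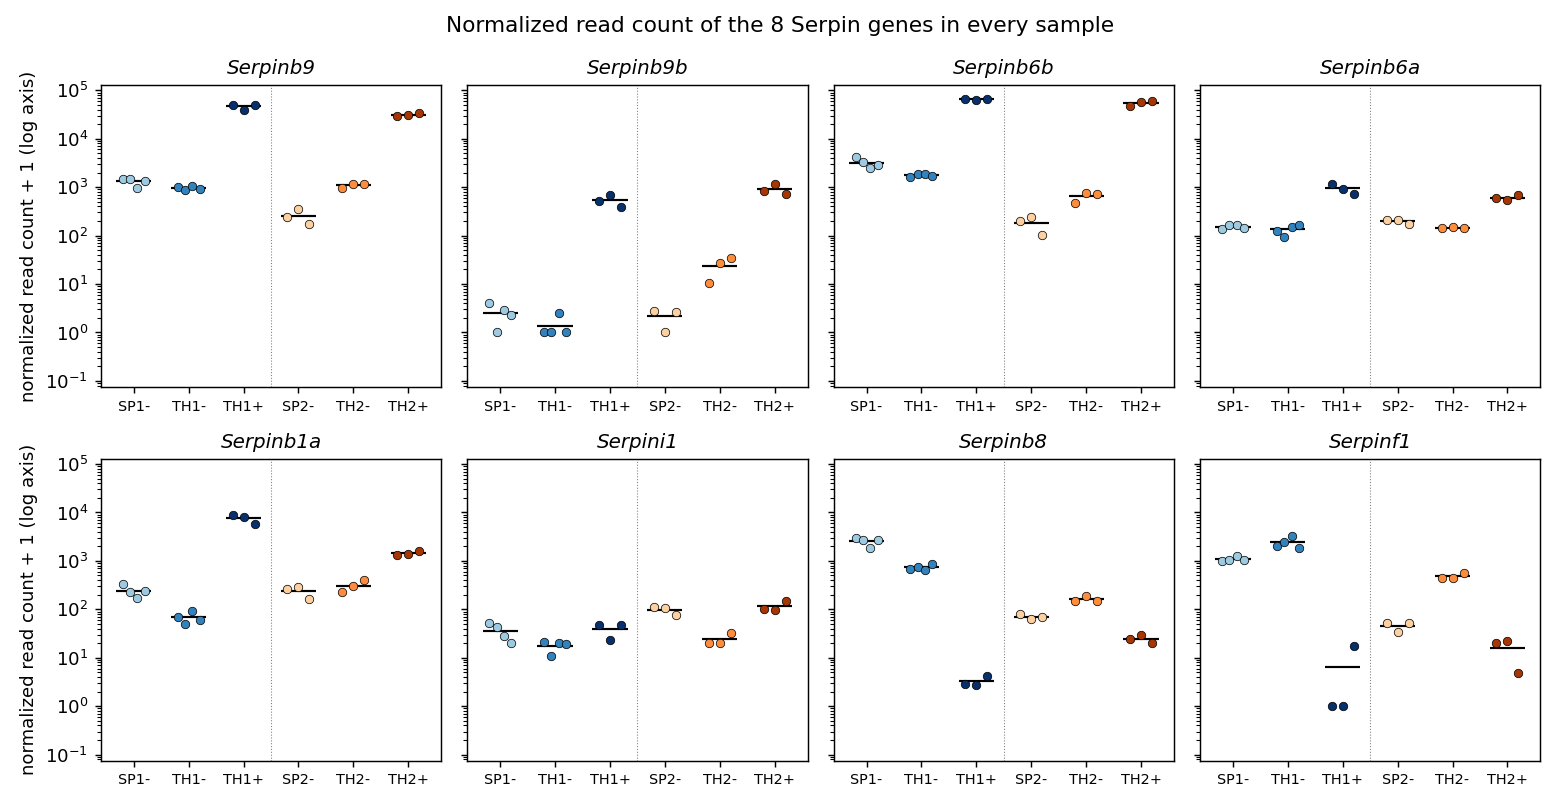
Normalized reads count plus 1 (log axis) of the 8 Serpin genes in each of the 20 samples (points) with the group mean (bar), for splenic (SP) and thymic (TH) cDC1 (1) and cDC2 (2), immature (-) or mature (+). Serpinb9, Serpinb6b, Serpinb1a, Serpinb6a and Serpinb9b were highest in the mature groups, and Serpinb8 and Serpinf1 in the immature cDC1 groups.

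Mature thymic cDCs were first compared with immature cells of the same subset. Serpinb9, an inhibitor of granzyme B, was among the most abundant transcripts of mature cells. Its normalized reads counts were 989, 859.5, 1047 and 917 in immature thymic cDC1 and 49921, 39707 and 50352 in mature thymic cDC1. In cDC2 they were 956, 1166 and 1157 in immature and 29730.0, 30787 and 34199.8 in mature cells. The groups did not overlap in either subset, and the mean was 49.0-fold higher in mature cDC1 and 28.9-fold higher in mature cDC2. On the log2(value + 1) scale the changes were 5.61 ± 0.19 (SE) in cDC1 and 4.85 ± 0.20 (SE) in cDC2. Among all genes of a sample, Serpinb9 ranked between 43 and 63 in mature cDC1 and between 72 and 91 in mature cDC2.

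Serpinb6b, a mouse paralogue of the human gene SERPINB6, was the most abundant of the 8 in mature cells. It gave 1651, 1872, 1893 and 1713 normalized reads in immature thymic cDC1, and 66901, 63798 and 67175 in mature thymic cDC1. Immature thymic cDC2 held 478, 755 and 737, and mature thymic cDC2 47849, 58389 and 60757. Every mature sample thus stood above every immature one. The mean rose 37.0-fold in cDC1 and 84.8-fold in cDC2, or by 5.21 ± 0.23 and 6.43 ± 0.24 (SE) on the log2 scale. It made up 0.213 to 0.246% of the reads of mature cDC1 samples.

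Serpinb1a, the counterpart of the human inhibitor of neutrophil elastase, rose further in cDC1 than in cDC2. Immature thymic cDC1 gave 67.6, 49.97, 90.5 and 60.6, and mature thymic cDC1 8911, 8067 and 5807. Immature thymic cDC2 gave 228, 299 and 396, and mature thymic cDC2 1317, 1397 and 1635. The mean was 113-fold higher in mature cDC1 and 4.71-fold higher in mature cDC2, with log2 changes of 6.81 ± 0.27 and 2.26 ± 0.28 (SE). Immature cDC1 was thus the lower and mature cDC1 the higher of the subsets, with no overlap in either state.

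Serpinb9b, the neighbour and paralogue of Serpinb9, was near the limit of detection in immature cDC1 and clearly present in mature cells. Immature thymic cDC1 gave 0, 0, 1.56 and 0, which was 1 read in 4 samples, and mature thymic cDC1 gave 511, 698 and 388. Immature thymic cDC2 gave 9.61, 26.8 and 32.7, and mature thymic cDC2 828, 1134 and 721. Both subsets were higher in the mature state without overlap. From the counts, mature cDC1 were 1973-fold higher, with a 95% counting interval of 353 to 78011, which gives little more than a lower bound. In cDC2 the mean was 38.8-fold higher, and the log2 change was 5.35 ± 0.61 (SE).

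Serpinb6a, the mouse counterpart of the inhibitor of cathepsin G encoded by SERPINB6, moved less. Its values were 126, 90.8, 153 and 165 in immature and 1174, 932 and 735 in mature thymic cDC1, and 145, 149 and 143 in immature and 583, 540.1 and 673 in mature thymic cDC2. Mature samples were again above all immature ones, by 7.09-fold in cDC1 and 4.10-fold in cDC2. Of the genes overlapping it on the other strand, Nqo2 went the other way, from 480.1 ± 21.3 to 62.0 ± 46.6 (SD, n = 4 and 3) in cDC1, and Ripk1 was at 2084 ± 210.4 and 3290.0 ± 91.0 (SD).

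Serpini1 (neuroserpin), a secreted inhibitor of tissue plasminogen activator known from neurons, was low throughout. Immature thymic cDC1 gave 20.3, 9.99, 18.7 and 18.2, and mature thymic cDC1 46.1, 22.5 and 46.4. Immature and mature thymic cDC2 gave 19.2, 18.7 and 31.2, and 99.0, 96.0 and 149. The ranges were apart by a small gap in cDC1, 20.3 against 22.5, and by a wide one in cDC2. The log2 changes were 1.12 ± 0.41 (SE) in cDC1, close to the threshold of 1, and 2.28 ± 0.44 (SE) in cDC2. The call in cDC1 was lost without immature thymic cDC1 replicate 2 (0.90), mature thymic cDC1 replicate 1 (0.95) or mature thymic cDC1 replicate 3 (0.95).

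Serpinb8, known as an inhibitor of the convertase furin, was high in immature cDC1 and almost lost in mature cDC1. The 4 immature thymic cDC1 samples had 696, 730.4, 662 and 853 normalized reads and the 3 mature ones 1.84, 1.73 and 3.20, the latter from 6 reads in all. In cDC2 the values were 147, 187 and 145 in immature and 23.8, 28.5 and 19.6 in mature cells. The ranges did not overlap in either subset. From the counts, mature cDC1 were 292-fold lower (95% counting interval, 134 to 797), whereas the mean of mature cDC2 was 6.67-fold lower.

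Serpinf1 (pigment epithelium-derived factor), a secreted serpin that does not inhibit proteases, showed the other fall. It was at 1987, 2455, 3296 and 1862 in immature thymic cDC1 and at 0, 0 and 16.8 in mature thymic cDC1. Immature thymic cDC2 had 439, 439 and 558 and mature thymic cDC2 19.2, 21.6 and 3.92. Mature samples were below all immature ones in both subsets. All 21 reads of mature cDC1 came from 1 of 3 samples, and from the counts these cells were 260-fold lower (170.1 to 421), against a 32.1-fold lower mean in mature cDC2.

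**Figure D2:**
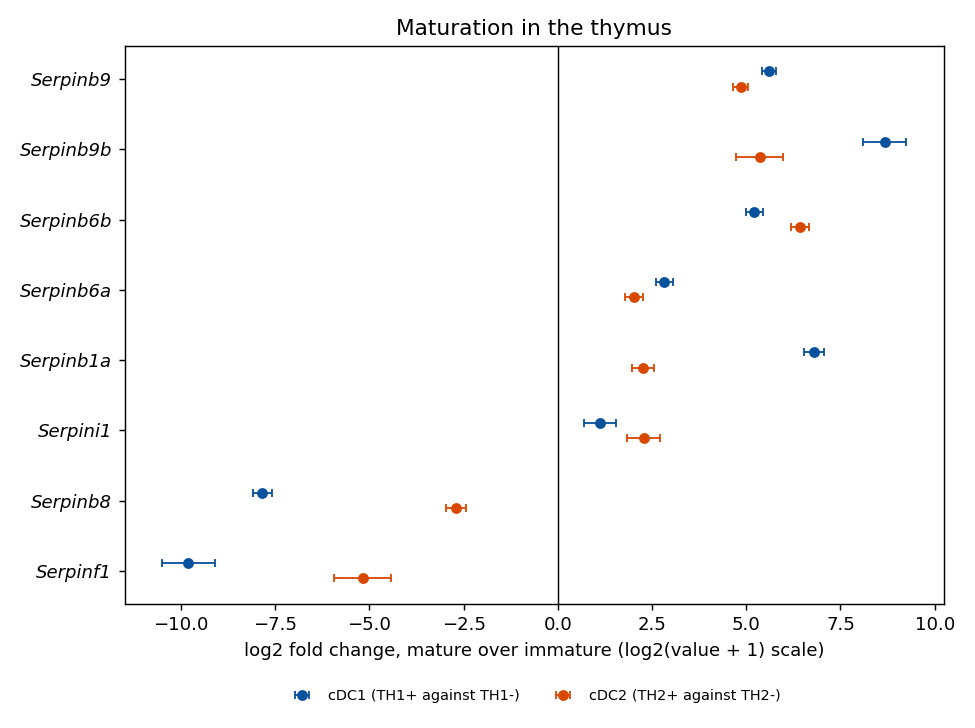
Log2 fold change of mature over immature thymic cells for the 8 Serpin genes, on the log2(value + 1) scale, in cDC1 and cDC2, with bars of 1 SE. The 6 genes right of 0 were higher in mature cells of both subsets, and Serpinb8 and Serpinf1 were lower in both.

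In the fit over all 14970 genes, genes were called at a Benjamini-Hochberg adjusted p below 0.1 with an absolute log2 fold change above 1. In cDC1, 6 of the 8 genes were called higher in mature cells, where 21.3% of all genes were called higher, and 2 lower, where the share of all genes was 24.5%. In cDC2 the same 6 were called higher and the same 2 lower, with shares of 18.6% and 17.0% of all genes. As the 8 were selected on these values, the counts describe the choice. Their median log2 change was 4.02 in cDC1 and 2.27 in cDC2, against -0.04 and 0.04 over all genes. The mature groups were sequenced in lane 8 only. Within lane 8 the log2 differences were 5.63 and 4.76 for Serpinb9 in cDC1 and cDC2, 5.18 and 6.21 for Serpinb6b, 6.82 and 2.07 for Serpinb1a, -7.87 and -2.75 for Serpinb8 and -9.89 and -5.24 for Serpinf1.

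The size of the maturation change was then set side by side for the subsets. The difference of the log2 changes, cDC2 minus cDC1, was -4.55 ± 0.39 (SE) for Serpinb1a and -3.32 ± 0.84 for Serpinb9b, which rose less in cDC2. It was 5.15 ± 0.36 for Serpinb8 and 4.62 ± 1.02 for Serpinf1, which fell less in cDC2, and 1.21 ± 0.33 for Serpinb6b, which rose more. The other 3 had differences below 1 or within 2 SE of 0, with -0.75 ± 0.28 for Serpinb9, -0.80 ± 0.32 for Serpinb6a and 1.16 ± 0.60 for Serpini1. Thus 5 of 8 were called, where 13.6% of all genes were called for this difference. The values of Serpinb9b, Serpinb8 and Serpinf1 rest on counts near 0 in a cDC1 group and depend on the pseudocount, which moved that of Serpinb9b from -5.90 (0.1) to -1.05 (8). Without mature thymic cDC1 replicate 3, which held all the Serpinf1 reads of that group, the difference for Serpinf1 was 6.01.

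The subsets were compared in the spleen, the immature thymus and the mature thymus. In the spleen, 4 of the 8 genes were higher in cDC1. Serpinb8 gave 2986, 2745, 1842 and 2668 in splenic cDC1 and 78.7, 62.5 and 68.4 in splenic cDC2, a 36.6-fold lower mean in cDC2. Serpinf1 gave 991, 1043, 1273 and 1067 in cDC1 and 51.2, 33.1 and 50.5 in cDC2, a 24.3-fold lower mean in cDC2. Serpinb6b had 4237, 3239.8, 2528 and 2847 in cDC1, and 201, 244 and 104 in cDC2. Serpinb9 had 1487, 1494, 957 and 1369.6 in cDC1, and 237, 349.9 and 176 in cDC2. None of these 4 overlapped between the subsets. The log2 differences were -4.19 ± 0.23 (SE) for Serpinb6b and -2.41 ± 0.19 for Serpinb9.

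Serpini1 was the 1 gene of the 8 called higher in splenic cDC2, with 51.5, 41.4, 26.8 and 19.6 in cDC1 and 110, 106 and 76.6 in cDC2. The other 3 were close in the subsets of the spleen. Serpinb1a gave 341, 224, 175 and 236 in cDC1 and 268, 288 and 159.7 in cDC2, ranges that overlapped. Serpinb6a gave 133, 162, 163 and 144 in cDC1 and 208, 206 and 176 in cDC2, a small difference without overlap (0.38 ± 0.22, SE, log2). Serpinb9b rested on 9 reads in cDC1 and 3 in cDC2. Of all genes, 9.93% were called higher and 6.7% lower in splenic cDC2, against 1 and 4 of the 8.

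In the immature thymus, cDC2 remained below cDC1 for Serpinf1 (-2.30 ± 0.70, SE, log2), Serpinb8 (-2.20 ± 0.25) and Serpinb6b (-1.47 ± 0.23), with no overlap between the samples given above. Serpinb1a had a mean of 67.2 ± 17.2 (SD, n = 4) in immature thymic cDC1 and of 308 ± 83.9 (SD, n = 3) in immature thymic cDC2, and was 4.58-fold higher in cDC2. Serpinb9b was also higher in cDC2, by 91.5-fold from the counts, with an interval of 15.9 to 3664 because cDC1 held 1 read. Serpinb9, Serpinb6a and Serpini1 overlapped between the subsets. Of all genes, 11.0% were called higher and 5.42% lower in cDC2, against 2 and 3 of the 8.

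In the mature thymus the order of the subsets was turned for Serpinb8 and Serpinb1a, and for Serpinf1 by mean alone. Serpinb8 was 9.55-fold higher in cDC2 from the counts (95% counting interval, 4.23 to 26.7). Serpinf1 was called higher in cDC2, yet its ranges overlapped (0 to 16.8 in cDC1, 3.92 to 21.6 in cDC2), and the ratio from the counts was 1.72 (1.03 to 2.97). Its call was lost without mature cDC1 replicate 1 or 2 (log2 difference 1.63 in both cases) and without mature cDC2 replicate 1 (2.01) or 2 (1.93). The call was also lost with DESeq2 (0.98), edgeR (0.92 or 0.89, by its scaling), a pseudocount of 8 (0.87) and only the groups compared. Serpinb1a was 5.24-fold lower in cDC2, without overlap. Serpini1 was 2.99-fold higher in cDC2. The 4 abundant or rising genes Serpinb6b, Serpinb9, Serpinb6a and Serpinb9b differed by less than 1 on the log2 scale, with -0.25 ± 0.24 (SE), -0.56 ± 0.20, -0.64 ± 0.23 and 0.76 ± 0.61. Among all genes 14.6% were called higher and 4.36% lower in mature cDC2, against 3 and 1 of the 8, and the median over all genes was itself shifted by 0.14.

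**Figure D3:**
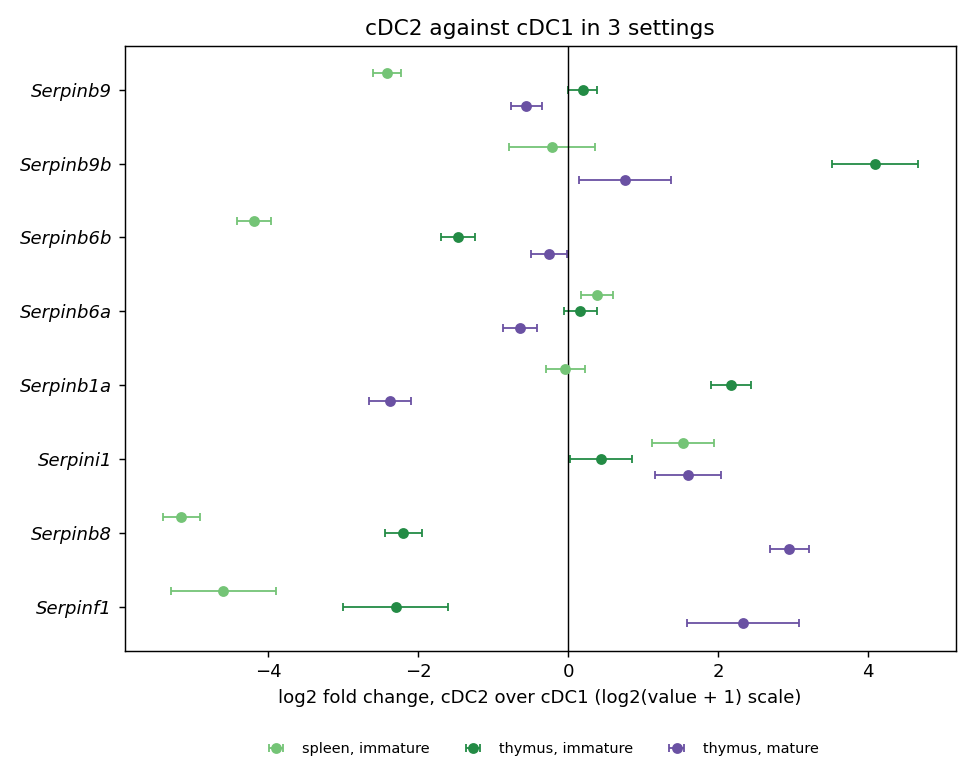
Log2 fold change of cDC2 over cDC1 for the 8 Serpin genes, on the log2(value + 1) scale, in the spleen, the immature thymus and the mature thymus, with bars of 1 SE. Serpinb8 and Serpinf1 lay left of 0 in both immature settings and right of 0 in mature cells, and Serpinb1a lay near 0 in the spleen, right of 0 in the immature thymus and left of it in mature cells.

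The order of the 6 groups was ranked by mean for each gene. For Serpinb8 no group overlapped with the next, from splenic cDC1 (2560.4 ± 497, SD, n = 4) through immature thymic cDC1, immature thymic cDC2, splenic cDC2 and mature cDC2 to mature cDC1 (2.26 ± 0.82, SD, n = 3). Serpinb6b also had 6 separate groups, with mature cDC1 (65958 ± 1876, SD) and mature cDC2 (55665 ± 6872, SD) at the top and splenic cDC2 (183 ± 71.5, SD) at the bottom. Serpinf1 ran from immature thymic cDC1 through splenic cDC1, immature thymic cDC2 and splenic cDC2, all apart, to mature cells, which overlapped with each other. Serpinb9 and Serpinb1a were led by mature cDC1 and then mature cDC2, and 3 of their 4 immature groups overlapped with a neighbour. In Serpinb6a and Serpinb9b, neighbours overlapped only among the lowest 3 groups. Serpini1 had 4 of 5 neighbouring pairs overlapping, with splenic cDC2 and mature thymic cDC2 above the rest.

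Immature thymic cells were then set beside splenic cells. In cDC1, Serpinb8 was 3.48-fold lower in the thymus (log2 change -1.78 ± 0.23, SE) and Serpinb1a 3.63-fold lower (-1.84 ± 0.25), with all 4 thymic samples below all 4 splenic ones in both. Serpinb6b was also below without overlap, by less than the fold threshold (-0.83 ± 0.21). For Serpinf1 all 4 thymic values were above the splenic ones, at 2.19-fold (1.10 ± 0.65), and it was called in edgeR and DESeq2 but not in the limma fit used here. The other 4 genes overlapped between the tissues. None of the 8 was called higher, beside 4.26% of all genes, and 2 were called lower, beside 4.52%.

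In cDC2, 5 of the 8 genes were called higher in the thymus, beside 8.3% of all genes, and Serpini1 was called lower, beside 5.87%. Serpinb9 was 4.30-fold higher (log2 change 2.15 ± 0.20, SE), Serpinb6b 3.59-fold (1.89 ± 0.24) and Serpinf1 10.6-fold (3.40 ± 0.75). Serpinb8 was 2.29-fold higher (1.18 ± 0.26). Serpinb9b rested on 3 reads in splenic cDC2, and its ratio from the counts was 25.1 (95% counting interval, 8.25 to 125). Serpini1 was 4.23-fold lower (-2.06 ± 0.44). In each of these 6 genes, all 3 thymic samples stood on 1 side of all 3 splenic ones. Serpinb1a overlapped between the tissues, and Serpinb6a was lower without overlap but not called (-0.42 ± 0.23). With lane 8 libraries only, which left 1 splenic cDC2 sample, Serpinf1, Serpinb8 and Serpini1 were no longer called and Serpinb1a was (1.10). Within lanes 5 and 8 the log2 differences were 1.73 and 2.72 for Serpinb9, 1.11 and 2.83 for Serpinb6b and 3.38 and 3.27 for Serpinf1.

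The summed mature DC markers were 3584 to 8235 in splenic cDC2 and 21242 to 31320 in immature thymic cDC2, and 1621 to 3102 and 4054 to 6292 in the corresponding cDC1. Esam, Lamp3 and Cd40 are not given singly. All 6 listed genes were found. Their group mean was at least 10 for 6 in both splenic and for 5 in both immature thymic groups. Of them, Ccr7 was at 3783 ± 1716 (SD, n = 3) in splenic and 3419 ± 682 (SD, n = 3) in immature thymic cDC2, Ccl22 at 218 ± 103 and 15572 ± 3575 (SD), and Fscn1 at 662 ± 336 and 3603 ± 905 (SD). Ccl22 and Fscn1, and with them the sum that contains both, were thus higher in immature thymic than in splenic cDC2, as Serpinb9, Serpinb6b and Serpinb9b were. Ccr7 overlapped, and a gene among Esam, Lamp3 and Cd40 went the other way, from a mean of at least 10 in splenic cDC2 to below 10. The panel was therefore not higher as a whole, and the part of these markers was not tested. Of the other genes that were higher in mature cells, Serpini1 was lower in immature thymic cDC2, Serpinb1a overlapped between splenic and immature thymic cDC2, and Serpinb6a was at 143 to 149 in immature thymic against 176 to 208 in splenic cDC2.

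The log2 tissue change in cDC2 minus that in cDC1, which is also the subset difference of the immature thymus minus that of the spleen, was called above 0 for 5 of the 8 genes, where 4.98% of all genes were called in either direction. It was 4.30 ± 0.81 (SE) for Serpinb9b, 2.96 ± 0.35 for Serpinb8, 2.72 ± 0.32 for Serpinb6b, 2.61 ± 0.27 for Serpinb9 and 2.21 ± 0.38 for Serpinb1a. For Serpinb8 and Serpinb6b, all thymic samples were below the splenic ones in cDC1 and above them in cDC2. Serpinb1a was lower in thymic cDC1 and close between the tissues in cDC2. Serpinf1 had a difference of 2.30 ± 0.99, which was not called here but was with edgeR, DESeq2, the pool block, only the groups compared, a pseudocount of 8 and without mature thymic cDC1 replicate 3.

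**Figure D4:**
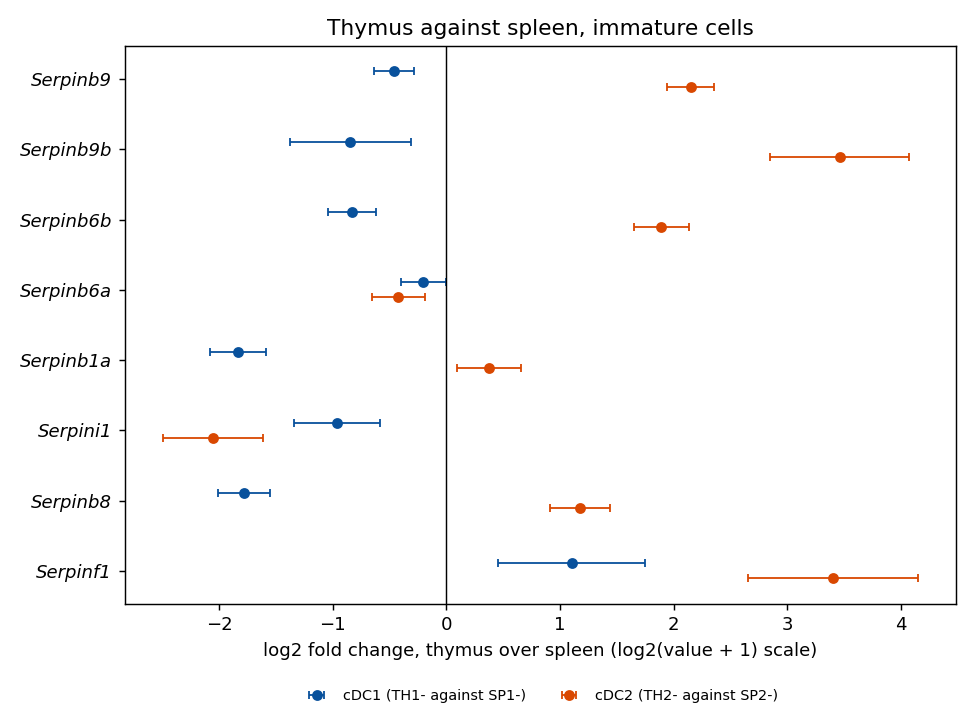
Log2 fold change of immature thymic over splenic cells for the 8 Serpin genes, on the log2(value + 1) scale, in cDC1 and cDC2, with bars of 1 SE. Serpinb9, Serpinb9b, Serpinb6b and Serpinb8 lay right of 0 in cDC2 and left of it in cDC1.

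The other 14 Serpin genes that passed the filter were not among those selected, so calls are given for them. Among them, Serpinb6c and Serpina3i reached the value set by the filter in mature samples only. Serpinc1 and Serpind1 reached it in some immature samples but passed only together with mature ones. The higher calls of these genes in mature cells, and the counts that include them, are therefore not independent of the filter. In mature against immature thymic cDC1, 6 of the 14 were called higher and 4 lower, beside 21.3% and 24.5% of all genes. Their median log2 change was 0.63 against -0.04 over all genes. In cDC2, 8 were called higher and 3 lower, beside 18.6% and 17.0% of all genes, with a median of 1.87 against 0.04. Serpinc1 (antithrombin) reached 727 ± 137 in mature cDC1 and 409 ± 15.1 in mature cDC2 (SD, n = 3 each), from 6.39 ± 6.70 and 3.86 ± 3.37 in immature cells. It overlaps Zbtb37 on the other strand, which was at 560 ± 206 and 2343 ± 289 (SD) in immature and mature cDC1. Serpinb1b and Serpinb6c, neighbours of the members on chromosome 13, were called higher in both mature subsets, and Serpinb1b reached 200.5 ± 34.0 and 132 ± 16.2 (SD).

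Serpinb10, which lies next to Serpinb8 on chromosome 1 and is annotated as a polymorphic pseudogene, was called lower in both mature subsets. It gave 61.7, 53.3, 65.5 and 49.5 in immature thymic cDC1 and 0, 0 and 4.00 in mature thymic cDC1, and 175, 177 and 154 against 9.21, 13.2 and 2.35 in cDC2. Serpinb2 (the type 2 inhibitor of plasminogen activators) shares exon bases with Serpinb10 on the same strand. It was at 1084 ± 288 (SD, n = 4) in splenic cDC1 and 103 ± 41.5 (SD, n = 3) in splenic cDC2 (limma adjusted p = 0.0109) and at 39.9 or less in each thymic sample. Serpina3g, an intracellular inhibitor of cysteine cathepsins, fell 5.61-fold in mature cDC1 (6802 ± 1180 to 1213 ± 502, SD, n = 4 and 3, adjusted p = 1.98e-09) and was not called in cDC2 (4983 ± 799 and 3503 ± 191, SD). The difference of these changes was 2.07 ± 0.31 (SE, adjusted p = 0.000146). Serpina3f and Serpinf2 were called lower in both mature subsets. Serpind1 (heparin cofactor) rose in cDC1 from 16.8 ± 9.66 to 157 ± 36.2 (SD, adjusted p = 0.000377). Its call in cDC2 (adjusted p = 0.0409), with those of Serpine2 (0.0919) and Serpinb7 (0.0892), rested on group means below 10 and was lost under several other settings.

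In the subset comparisons, 1 of the 14 was called higher (Serpinb7) and 3 lower (Serpine2, Serpinb2 and Serpina3f) in splenic cDC2. The shares of all genes there were 9.93% and 6.7%. In the immature thymus 2 of the 14 were called higher in cDC2, Serpinb10 among them, and 2 lower (Serpind1 and Serpine2), beside 11.0% and 5.42%. In the mature thymus Serpina3g, Serpina3f and Serpinb10 were called higher in cDC2 and Serpind1 lower, beside 14.6% and 4.36% of all genes. Serpinh1 and Serpina3i stayed at or below 23.5 in each sample.

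Levels were compared between genes per kilobase of exon. Summed over the 22 Serpin genes, the level per kilobase was 4916 to 6897 in immature thymic cDC1 and 44224 to 49166 in mature thymic cDC1, and 2901 to 3969 and 32578 to 39502 in immature and mature thymic cDC2. In mature cells Serpinb6b held 60.2 to 63.8% of this sum in cDC1 and 64.9 to 68.6% in cDC2, and Serpinb9 25.7 to 29.9% and 23.4 to 26.1%. In immature cells Serpina3g led, with 56.2 to 58.6% in thymic cDC1, 67.4 to 68.2% in thymic cDC2, 31.0 to 42.4% in splenic cDC1 and 74.8 to 81.7% in splenic cDC2. Serpinf1 held 16.1 to 20.3% in immature thymic cDC1. The level per kilobase of Serpinb1a was 3298 ± 697 (SD, n = 3) in mature cDC1, that of Serpinb9b 159 ± 46.7 and that of Serpinb6a 175 ± 40.7. With the longest transcript as length in place of all exons, Serpinb6a was at 432 and Serpinb9b at 164.

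**Figure D5:**
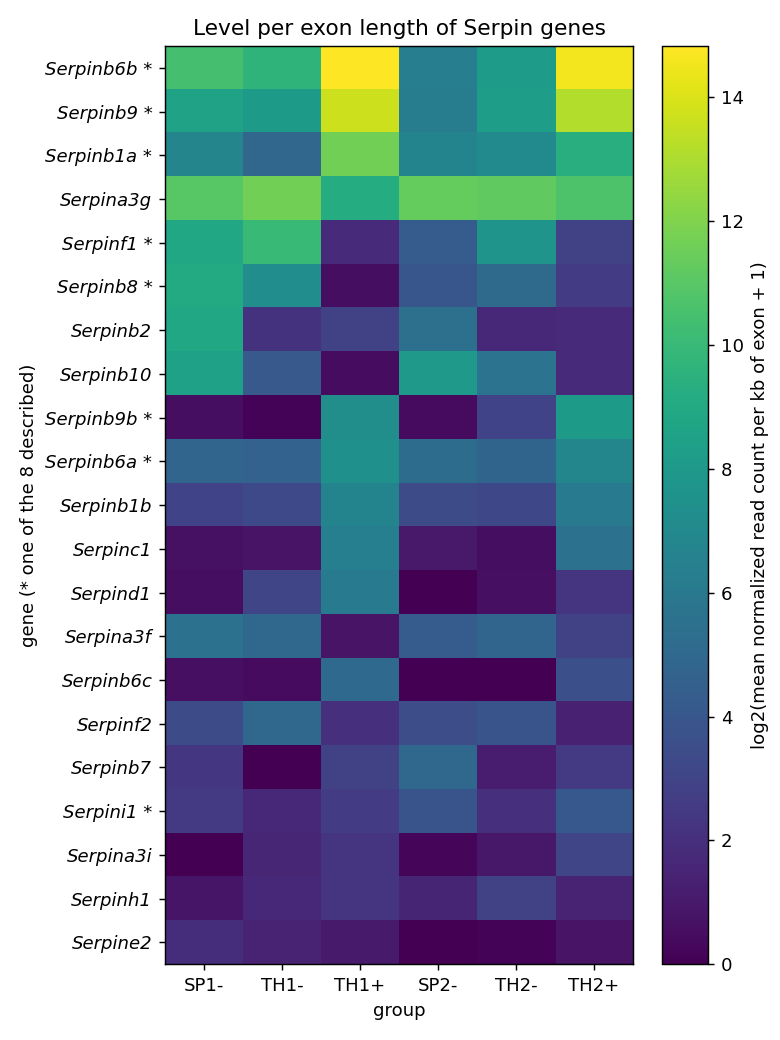
Log2 of the mean normalized reads count per kilobase of exon plus 1 for 21 of the Serpin genes that passed the filter (rows, ordered by their highest group mean; * marks the 8 described) in the 6 groups (columns). Serpinb6b and Serpinb9 were the highest in both mature groups, and Serpina3g in the 4 immature groups.

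The genes whose pattern over the 20 samples was most like that of each Serpin were found by the Pearson correlation of log2(value + 1), among 10212 genes with a mean of at least 100. These r values are a description, since the 20 samples form 6 groups and share their lanes and pools. Serpinb9 was most like Cd200 (r = 0.992) and Poglut1 (0.986), and Serpinb9b like Fscn1, the actin bundler of mature DCs (0.981), and Scube3 (0.975). Serpinb6b was most like Strip2 (0.982) and Slc22a23 (0.980), Serpinb6a like Nub1 (0.977) and Dock9 (0.976), and Serpinb1a like Scpep1 (0.961) and Irf1, an interferon-induced transcription factor (0.956). For the falling genes they were Gatm (0.978) and Fcrla (0.977) with Serpinf1, and Ipo5 (0.963) and Rpgrip1 (0.961) with Serpinb8. Serpini1 had the weakest best matches, Cep63 (0.872) and Ston2 (0.866).

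Proteases that serpins are known to act on were described from fixed lists. Of 11 granule serine proteases, all were found and 4 were tested. The granzymes Gzma (107 ± 51.5, SD, n = 3) and Gzmb (59.3 ± 15.9, SD), the latter a target of Serpinb9, were highest in splenic cDC2 and were called higher there than in splenic cDC1 (limma adjusted p = 6.11e-06 and 3.85e-08). Neither Gzma nor Gzmb was called for maturation. Of the 4 tested, 1 was called higher in mature cDC1 and 1 lower in mature cDC2, beside 21.3% and 17.0% of all genes. Gzmb was at 0 in every cDC1 sample, and in mature cDC2 at 0.464 ± 0.80 (SD). NK cell markers reached a sum of up to 58.7 in splenic cDC2 and at most 6.8 in the other groups, and their part was not tested. Of 13 cysteine proteases, 7 were called higher and none lower in mature cDC1, beside 21.3% and 24.5% of all genes, and 3 higher and none lower in mature cDC2, beside 18.6% and 17.0%. Their medians were 1.33 and 0.57, against -0.04 and 0.04 over all genes. Lgmn (legumain) rose from 679.9 ± 84.0 to 10266 ± 3124 (SD) in cDC1 (adjusted p = 2.34e-12) and from 2386 ± 166 to 7177 ± 1099 (SD) in cDC2 (adjusted p = 5.32e-06). Ctss, the cathepsin that trims the invariant chain, was at 13406 ± 1448 and 21027 ± 2519 (SD) in immature and mature thymic cDC1 and at 40323 ± 259 and 32608 ± 4213 (SD) in cDC2, changes under the fold threshold.

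Of 10 genes of the plasminogen system, 8 were tested, and 3 were called higher and 5 lower in mature cDC1 and 3 higher and 3 lower in mature cDC2, with medians of -1.53 and -0.99. The shares of all genes were 21.3% and 24.5% in cDC1 and 18.6% and 17.0% in cDC2, which also stand behind the smaller lists that follow. Plat, the tissue plasminogen activator that Serpini1 inhibits, rose in cDC1 from 5.65 ± 6.47 to 1155 ± 81.7 (SD, n = 4 and 3; adjusted p = 1.23e-08) and from 28.0 ± 10.7 to 262 ± 100.4 (SD) in cDC2 (adjusted p = 0.00288). Plaur, the receptor of urokinase, was called lower in mature cells of both subsets and fell from 2283 ± 75.8 to 224 ± 145 (SD) in cDC2. Of 4 proprotein convertases 3 were tested, and 1 was called higher and 1 lower in mature cDC1 and none in mature cDC2. Furin, the target of Serpinb8, was called lower in mature cDC1 (3593 ± 492 to 1781 ± 518, SD) and was at 2892 ± 102 and 1488 ± 349.6 (SD) in cDC2, where it was not called.

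Of 12 cystatins and stefins, 9 were found and 4 tested. Cstb was called higher in mature cDC1 (907 ± 279 to 3131 ± 391, SD, adjusted p = 4.84e-07), Stfa2l1 and Cst7 were called lower there, and none was called in cDC2. Cst3 (cystatin C) was higher in cDC1 than cDC2 in the spleen, the immature thymus and the mature thymus, at 173647 ± 55405 and 73435 ± 19451 (SD) in mature cells. Of 19 other inhibitors 18 were found and 10 tested. Among them Cflar, Birc3 and Birc2, which restrain caspases and cell death, and Spint2 were called higher in both mature subsets, and Pi16, Spint1 and Wfdc17 lower in both. Spint1 and Spint2, a pair of Kunitz inhibitors of matriptase-like proteases, went opposite ways, Spint2 from 1084 ± 226 to 9074 ± 1058 (SD) and Spint1 from 2125 ± 261 to 244 ± 26.4 (SD) in cDC1.

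Of 6 receptors and partners of the Serpinf1 product, all were tested. Plxdc1 was called lower in mature cDC1 (1568 ± 132 to 336 ± 47.3, SD, adjusted p = 4.77e-09) and in mature cDC2 (adjusted p = 6.21e-07), and Pnpla2, the lipase known as its receptor, was called higher in mature cDC2 (916 ± 90.5 to 3235 ± 783, SD, adjusted p = 3.52e-05). Of 5 receptors that clear serpin and protease complexes, 4 were tested. Lrp8 and Sort1 were called higher and Lrp1 lower in mature cells of both subsets. Lrp1 was at 3036 ± 717 in immature and 377 ± 202 (SD) in mature thymic cDC2, and Lrp8 at 1302 ± 83.9 and 7791 ± 754 (SD).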

How the data were processed

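RNAseq was measured in 21 libraries of 6 groups. Per the submitters' processing notes and the study's methods, reads were trimmed (Cutadapt), aligned to mm10 (STAR 2.6), assigned to Ensembl genes (HTSeq-count) and scaled (DESeq2 1.24.0). The Ensembl release and strand setting are not given in the sources used here. The values the authors deposited are a signal, the read count divided by 1 size factor per library. Reads recovered by division were whole, within 0.01, for 100% of values.

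Log2(value + 1) of 20 samples was fitted with limma (3.58.1, R 4.3.3) with 1 mean per group and an intensity trend. The fit held 14970 genes that reached 10 in 3 or more samples. The threshold for a call was 0.1 for the Benjamini-Hochberg adjusted p and 1 for the size of the log2 change. The script was tested on simulated data. Alternatives were edgeR (4.0.16), DESeq2 (1.42.0), other pseudocounts and filters, lane 8 alone, pool blocks and omission of each sample. Where a group held at most 30 reads, ratios have exact binomial 95% intervals. The libraries came from pooled mice, and p values measure the spread between these samples, which may in part be technical.

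The members and lists were chosen with earlier results of these data known. A test of the members between tissues had been planned and is not given, since its libraries also enter the subset values. The rule for names took all 8 members, other Serpin genes called in a maturation or subset comparison or with a group mean of 100 or more, listed genes with such a mean, and the 2 genes most like each member. Serpinh1 and Gzmb were named after their values were seen. Gene models were from GENCODE M21, which held 37607 of 37734 identifiers, and promoters from RefSeq. Some genes of the lists and 1 Serpin gene are counted but not reported here by name.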

Additional observations from a re-analysis of the deposited data

Results flagged for a closer look

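In 2 of the 8 genes, every immature thymic cDC1 sample was below every splenic cDC1 sample while every immature thymic cDC2 sample was above every splenic cDC2 sample. The log2 tissue change in cDC2 minus that in cDC1 was 2.96 for Serpinb8 and 2.72 for Serpinb6b, a difference that was not tested because it is made of the subset values on which the genes were selected. The maturation change differed between the subsets for 2 further Serpin genes named here, by the limma test of the difference itself. The log2 difference, cDC2 minus cDC1, was 2.07 for Serpina3g (adjusted p = 0.000146) and 3.14 for Serpina3f (adjusted p = 0.00627), of which the former was called lower in mature cDC1 alone and the latter in both subsets. Serpina3f had 6 reads in mature cDC1, at values of 0, 0 and 4.80, so its difference rests on counts near 0. Without 1 sample at a time that difference was 2.71 to 3.98. In none of the 15 groups of 4 samples that were checked did a sample of a member stand far from the others, a check that by chance singles out about 1 in 20 groups.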

How the results depend on the processing

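The shares of all genes called are given with each comparison above. The counts of Serpin genes called, out of 22 tested, were 18 and 19 for maturation in cDC1 and cDC2, 9, 9 and 8 for subset in the spleen, immature thymus and mature thymus, 7 and 9 for tissue in cDC1 and cDC2, and 8 and 5 for the differences of maturation and of tissue effects. Requiring 10 in each single sample left 6 Serpin genes, of which 6, 5, 2, 2, 2, 1, 2, 3 and 3 were called in that order, since fewer genes were tested. With lane 8 only, 4 were called for tissue in cDC2, where 1 splenic sample remained. The difference of tissue effects gave 8 calls with DESeq2, 9 with a pseudocount of 8 and 8 with only the groups compared, and the cause was not tested. Without 1 sample at a time the counts were 17 to 19, 16 to 20, 8 to 9, 8 to 10, 7 to 10, 6 to 8, 9 to 9, 7 to 10 and 5 to 7. With the pool number as a replicate block, which could be fitted for 3 comparisons, 9, 8 and 8 genes were called for subset in the spleen, subset in the immature thymus and the difference of tissue effects. Samples of a pool correlated at -0.1504 to 0.4611, over 0.1 in 5 of 11 pairs, which cannot tell whether they share mice. With 1 sample per group and pool, the counts were 18, 17, 8, 9, 8, 6, 9, 8 and 5. None of the log2 changes reversed a call. For genes near 0 the size followed the pseudocount: the maturation change of Serpinf1 in cDC1 was -12.05 with 0.1 and -7.65 with 8, and that of Serpinb9b 11.3 and 5.97. Without immature thymic cDC2 replicate 1 the difference of maturation effects of Serpinb6b was 1.00. Depth limits Serpinb9b in the immature cDC1 and splenic cDC2 groups, and Serpinb8 and Serpinf1 in mature cDC1.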
